A study of Mus musculus with 9 samples.

Results

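The endoplasmic reticulum (ER) stress and ATF4 response genes Hspa5, Hsp90b1, Dnajb9, Xbp1, Atf4, Atf3, Ddit3, Trib3, Asns and Chac1 were examined in murine primary cells cultured from tumors (MPC). These 10 genes were chosen by symbol, out of the 18049 genes listed in the deposited table, and all 10 were found. All 10 averaged 50 or more normalized counts over the clones, the limit above which a gene is called expressed here. Bulk RNA-sequencing had been performed on 9 MPC clones of a single group, WTg. The WTg mouse carries CAG-Mettl3, which places the reading frame of mouse Mettl3 behind the CAG promoter, active in most tissues, together with EL1-Luc/EL1-Tag, in which luciferase and the SV40 large T antigen are driven by the promoter of pancreatic elastase I. All 9 clones are therefore taken to carry these transgenes by descent, and the ages of the mice are not given in the sources used here. Tumor tissue was minced, attached cells were passaged in DMEM with 10% FBS, and colonies were isolated with cloning cylinders. The labels describe the cells as fibroblasts from the pancreas and give the treatment as none, although a protocol field names 80 nM NMS-P937 for 24 h. No label says that the clones came from separate animals, so the p-values measure only the spread between these 9 clones, part of which may be technical.

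When unfolded protein accumulates in the ER, the sensors IRE1, ATF6 and PERK are activated. ATF6 and the spliced form of XBP1 induce ER chaperones, whereas PERK, like other kinases of eIF2α, lowers general translation and allows translation of ATF4, a transcription factor for genes of amino acid supply and redox balance. Because Atf4 is controlled mainly at translation and Xbp1 by splicing, the level of either mRNA does not measure the activity of its protein, and gene-level counts do not separate spliced from unspliced Xbp1.

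Promoter sequences from RefSeq (GRCm38.p6) showed which members carry a binding motif of these regulators near the start of transcription. A window of 250 bases before to 50 bases after the start was found for 10 of 10 members. The ER stress response element (ERSE, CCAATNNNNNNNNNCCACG), bound by ATF6 with NF-Y, was present in the windows of Hspa5 and Hsp90b1, and in 0.119% of all 32851 windows. The C/EBP-ATF response element (CARE, TGATGNAA), bound by ATF4, was present in those of Atf3, Trib3, Asns and Chac1, and in 3.97% of all windows. Both strands were searched. The letters TGACGTGG, found in the XBP1-bound unfolded protein response element, were in the windows of 0 of 10 members and in 0.676% of all windows, and the cAMP response element TGACGTCA was likewise in 0 of 10 and in 1.79%. The motifs overlap in part, since TGACGTGG ends in CGTGG, the reverse complement of the end of the ERSE, and begins with the same 6 letters as TGACGTCA. The matches are a description of letters, and no binding was measured. The 250 bases before the start are shown for Hspa5 (chr2:34771840-34772089, plus strand) and Asns (chr6:7693210-7693459, minus strand), the genes that stand below for the chaperones and for amino acid supply, 5′ to 3′ with the ERSE or CARE match in capitals.
Hspa5: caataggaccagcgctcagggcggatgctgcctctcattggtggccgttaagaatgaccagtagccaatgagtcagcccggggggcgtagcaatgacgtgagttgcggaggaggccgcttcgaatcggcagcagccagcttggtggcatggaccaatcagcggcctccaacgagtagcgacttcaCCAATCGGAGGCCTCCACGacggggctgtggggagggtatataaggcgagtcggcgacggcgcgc
Asns: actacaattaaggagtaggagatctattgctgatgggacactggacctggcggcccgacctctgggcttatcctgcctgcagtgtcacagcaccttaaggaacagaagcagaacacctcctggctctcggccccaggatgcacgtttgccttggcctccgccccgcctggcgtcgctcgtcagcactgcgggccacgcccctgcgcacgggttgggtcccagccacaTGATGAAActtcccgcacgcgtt

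The other matches are shown with their flanks on the strand of the gene. Hsp90b1 held 2 ERSE matches, within chr10:86705618-86705676 and, in the reverse orientation, within chr10:86705513-86705571. Each interval includes the flanks shown. The CARE matches, again with flanks in the interval, were within chr2:152344029-152344056 for Trib3, where the match lies after the start. They were within chr2:119351039-119351066 for Chac1 and within chr1:191183426-191183453 for Atf3.
Hsp90b1, upstream match: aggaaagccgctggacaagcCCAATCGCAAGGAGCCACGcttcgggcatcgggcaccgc
Hsp90b1, downstream match: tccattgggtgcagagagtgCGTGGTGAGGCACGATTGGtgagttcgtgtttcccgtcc
Trib3: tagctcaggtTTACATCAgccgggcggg
Chac1: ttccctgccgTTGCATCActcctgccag
Atf3: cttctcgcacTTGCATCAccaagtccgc

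Gene coordinates are those of RefSeq on GRCm38.p6, and levels are given in normalized counts, which are the read counts of a library times 1 scaling factor. Between 12198036 and 20453901 reads were counted on genes per library, with a median of 18082583, and 1 read was worth 1.26 to 2.19 normalized counts. The headers of the deposited table carry 3 prefixes, and the clones are named here A1, B1 to B4 and C1 to C4 after them. What the prefixes stand for is not given in the sources used here. Because prefix A has 1 clone, prefix A and clone A1 cannot be told apart. Among the 12301 expressed genes, A1 was the highest clone in 21.5% and C2 in 14.9%, and A1 was the lowest in 19.5% and C2 in 18.9%. A1 is also the shallowest library. Of the markers of fibroblasts, 14 of 14 were listed and 13 were above 3 reads in every clone, and of those of macrophages 16 of 16 were. Summed fibroblast markers made up 1.45% to 3.92% of the normalized counts and summed macrophage markers 2.18% to 3.38%, so that transcripts of both cell types were abundant in clones labelled as fibroblasts. Of the 6 epithelial markers, Epcam was at 0 in every clone, 2 were above 3 reads in every clone and 1 averaged 50 or more normalized counts. Of the 6 acinar markers, 4 averaged 50 or more and 1 was above 3 reads in every clone. Summed acinar markers made up at most 0.00955%, in C3. In such bulk samples, fewer cells of a type and less RNA per cell cannot be told apart.

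The major ER chaperones were highest in clones A1 and C2. Hspa5 (ENSMUSG00000026864, chr2:34772090-34776529), which encodes the ER Hsp70 chaperone BiP, was at 29114 normalized counts in A1, 18463, 21615, 18726 and 18457 in B1 to B4, and 21016, 23029, 18755 and 20212 in C1 to C4. A1 was the highest clone, C2 followed, and the other 7 clones lay between 18457 and 21615. The mean was 21043 ± 3428 (SD, n = 9), and the highest clone was 1.58-fold above the lowest.

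Hsp90b1 (ENSMUSG00000020048, chr10:86690841-86705444), which encodes the ER Hsp90 paralog GRP94, was at 32326 in A1, 19516, 22899.8, 19468 and 19599 in B1 to B4, and 23793, 25841, 18947 and 20015 in C1 to C4. Its order resembled that of Hspa5, with A1 and C2 at the top and B2 and C1 next. The mean was 22489.6 ± 4399.7 (SD, n = 9), with a 1.71-fold range.

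Dnajb9 (ENSMUSG00000014905, chr12:44205897-44210068), an ER J-domain cochaperone of BiP and a known target of spliced XBP1, ran the other way. It was at 969 in A1, 1233, 1191, 1239 and 1344 in B1 to B4, and 1181, 1033, 1109 and 1074 in C1 to C4. A1 and C2, the top clones for Hspa5, were the lowest clones here. All 4 clones of prefix B were above all 4 of prefix C, by 1251 ± 65.2 against 1099 ± 62.7 (SD, n = 4 each). Dnajb9 was 1 of 10 members for which the clones of prefixes B and C did not overlap, and 11.1% of expressed genes did the same. Its range was 1.39-fold, around a mean of 1153 ± 116 (SD, n = 9).

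Xbp1 (ENSMUSG00000020484, chr11:5520641-5525993), which encodes the transcription factor activated by IRE1, was the steadiest member. It was at 3578 in A1, 3661, 3745, 3716 and 3475 in B1 to B4, and 3194, 3509, 3296 and 3657 in C1 to C4. A1 was at the middle of the 9 clones. The mean was 3537 ± 189.5 (SD, n = 9), the range was 1.17-fold, and 5.06% of expressed genes had a smaller SD of log2 values.

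**Figure D1:**
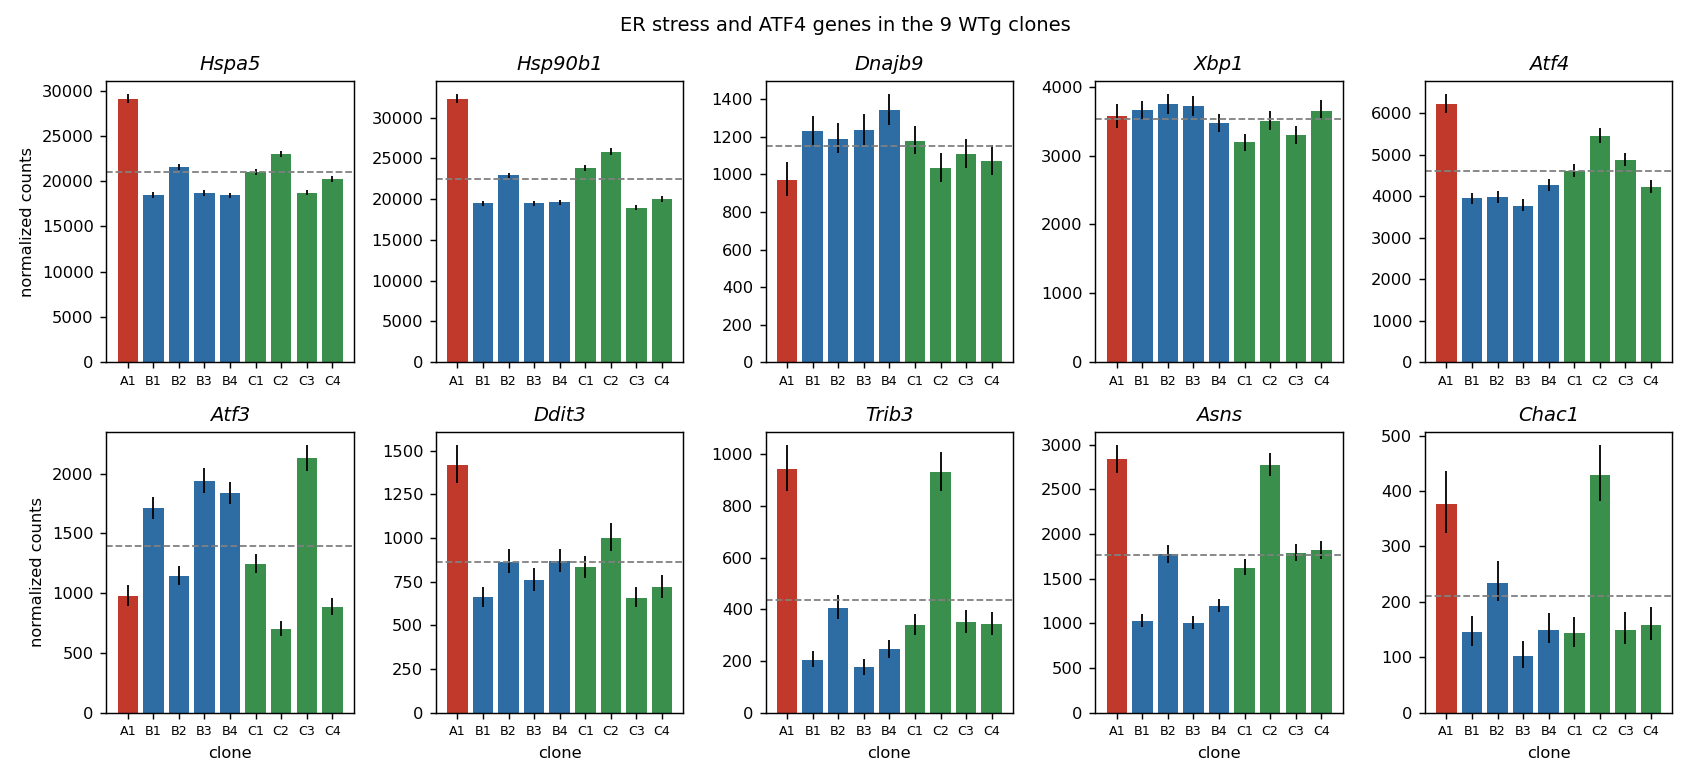
Normalized counts of the 10 members in each of the 9 WTg clones, with 1 panel per gene, bars coloured by prefix (A red, B blue, C green), error bars for the 95% Wilson interval of the read count (counting error only) and a dashed line at the mean. Trib3, Asns and Chac1 were highest in A1 and C2, Atf3 and Dnajb9 were low in both, and Xbp1 ranged from 3194 to 3745.

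Among the transcription factors, Atf4 (ENSMUSG00000042406, chr15:80255184-80257545) was at 6219 in A1, 3943, 3973, 3772 and 4276 in B1 to B4, and 4615, 5460.2, 4879.5 and 4227 in C1 to C4. A1 and C2 were again the highest, and the clones of prefix B lay at the lower end, with C4 among them. The mean was 4596 ± 806 (SD, n = 9), with a 1.65-fold range.

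Atf3 (ENSMUSG00000026628, chr1:191170296-191183333), a stress-inducible repressor that ATF4 and other pathways induce, was at 976 in A1, 1709, 1144, 1942 and 1837 in B1 to B4, and 1244, 699, 2129 and 888 in C1 to C4. C2 was the lowest clone and C3 the highest, so 1 prefix held both ends of the range. The mean was 1396 ± 517 (SD, n = 9), with a 3.04-fold range.

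Ddit3 (ENSMUSG00000025408, chr10:127290793-127296291), which encodes the pro-apoptotic factor CHOP, was at 1418 in A1, 660.4, 863, 761 and 867 in B1 to B4, and 832, 1002, 659 and 719 in C1 to C4. Only A1 stood well above the others, with C2 next. The mean was 865 ± 235 (SD, n = 9), with a 2.15-fold range.

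Among the targets of ATF4 and CHOP, Trib3 (ENSMUSG00000032715, chr2:152337425-152344060), a pseudokinase that restrains ATF4 and AKT signaling, was at 943 in A1, 205, 407, 175 and 245 in B1 to B4, and 340.2, 930.3, 351 and 344 in C1 to C4. A1 and C2 were at nearly the same level, well above the third clone, B2. The mean was 438 ± 293 (SD, n = 9), the range was 5.39-fold, and 93.9% of expressed genes had a smaller SD of log2 values. Asns (ENSMUSG00000029752, chr6:7675165-7693209), which encodes asparagine synthetase, was at 2836 in A1, 1027, 1770.1, 1004 and 1197 in B1 to B4, and 1623, 2772, 1791 and 1821 in C1 to C4. B2 was close to C1, C3 and C4, so the other clones of prefix B formed the low end. The mean was 1760.2 ± 674 (SD, n = 9), with a 2.82-fold range.

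Chac1 (ENSMUSG00000027313, chr2:119351242-119354326), which encodes an enzyme that degrades glutathione, rested on 71 to 275 reads. It was at 376 in A1, 145, 235, 103 and 150.2 in B1 to B4, and 144, 429, 149.7 and 158 in C1 to C4. C2 and A1 were highest and B2 next, while the counting intervals of B1, B4, C1, C3 and C4 overlapped. The mean was 210.0 ± 115 (SD, n = 9), with a 4.18-fold range.

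The median SD of log2 values was 0.30 over the 10 members and 0.21 over the 12301 expressed genes. A1 and C2 were the 2 highest clones for 7 of 10 members, namely Hspa5, Hsp90b1, Atf4, Ddit3, Trib3, Asns and Chac1. The same held for 13.2% of expressed genes. Among lists outside these pathways, it held for 8 of 12 immediate early genes and 6 of 12 fibroblast markers. It held for 4 of 10 cytosolic heat shock genes, 0 of 16 macrophage markers and 0 of 4 acinar markers. This order of clones was chosen after the values had been seen. Fibroblast markers made up 3.28% of the normalized counts in A1 and 3.92% in C2, the 2 highest shares, while macrophage markers made up 2.55% and 2.18%. Their part in the levels of the members was not tested.

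To ask which members moved together over the clones, the log2 level of every gene was regressed on that of Trib3, the most variable member, on that of Hspa5, and on that of Mettl3, the transgene. A slope is the log2 change of a gene per log2 unit of the regressor, and the 12300 other expressed genes were tested with limma, with Benjamini-Hochberg adjusted p-values. Trib3 and Hspa5 are members, and their fits use the same 9 clones. Slopes that passed the test for a member are therefore not independent of each other.

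Asns and Chac1 followed Trib3 most closely. The slope of Asns on Trib3 was 0.63 ± 0.05 (SE, adjusted p = 0.00193, limma) and that of Chac1 was 0.77 ± 0.09 (adjusted p = 0.00308). By Pearson's r with Trib3, Asns ranked 3 and Chac1 ranked 41 of 12300 genes. Atf4, Hspa5, Hsp90b1 and Ddit3 also had a positive slope that passed the test, between 0.22 for Hspa5 and 0.31 for Ddit3, with adjusted p of 0.00883 for Atf4, 0.0148 for Hspa5, 0.0146 for Hsp90b1 and 0.0292 for Ddit3. Dnajb9 (slope -0.15, SE 0.04, adjusted p = 0.0244) and Atf3 (slope -0.51, SE 0.14, adjusted p = 0.0255) fell as Trib3 rose. Xbp1 did not pass the test, with a slope of -0.01 ± 0.04 (adjusted p = 0.85). In all, 6 of 9 members were positive and 2 of 9 negative, against 12.3% and 13.9% of all genes tested.

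These calls rested on A1 and C2 to different degrees. Without A1, 4 of 9 members passed, Asns (adjusted p = 0.00921), Chac1 (0.0144), Atf4 (0.045) and Atf3 (0.0422), and Hspa5 (0.0666), Hsp90b1 (0.0732), Dnajb9 (0.0975) and Ddit3 (0.159) did not. Without C2, Dnajb9 (0.0546) and Atf3 (0.118) were lost. Without B1, 5 of 9 members passed, and without B3, 6 of 9. Of all 12300 genes, 890 were positive and 1127 negative without A1, and 907 and 1060 without C2. The counts were 902 and 943 without B1, and 961 and 834 without B3. Without A1 and C2 together, or with the prefix as a covariate (which leaves out A1), limma called 0 of 9 members and 0 of all genes. At an unadjusted p under 0.05, 2 members passed without A1 and C2, both positive, and 944 genes were positive and 913 negative.

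**Figure D2:**
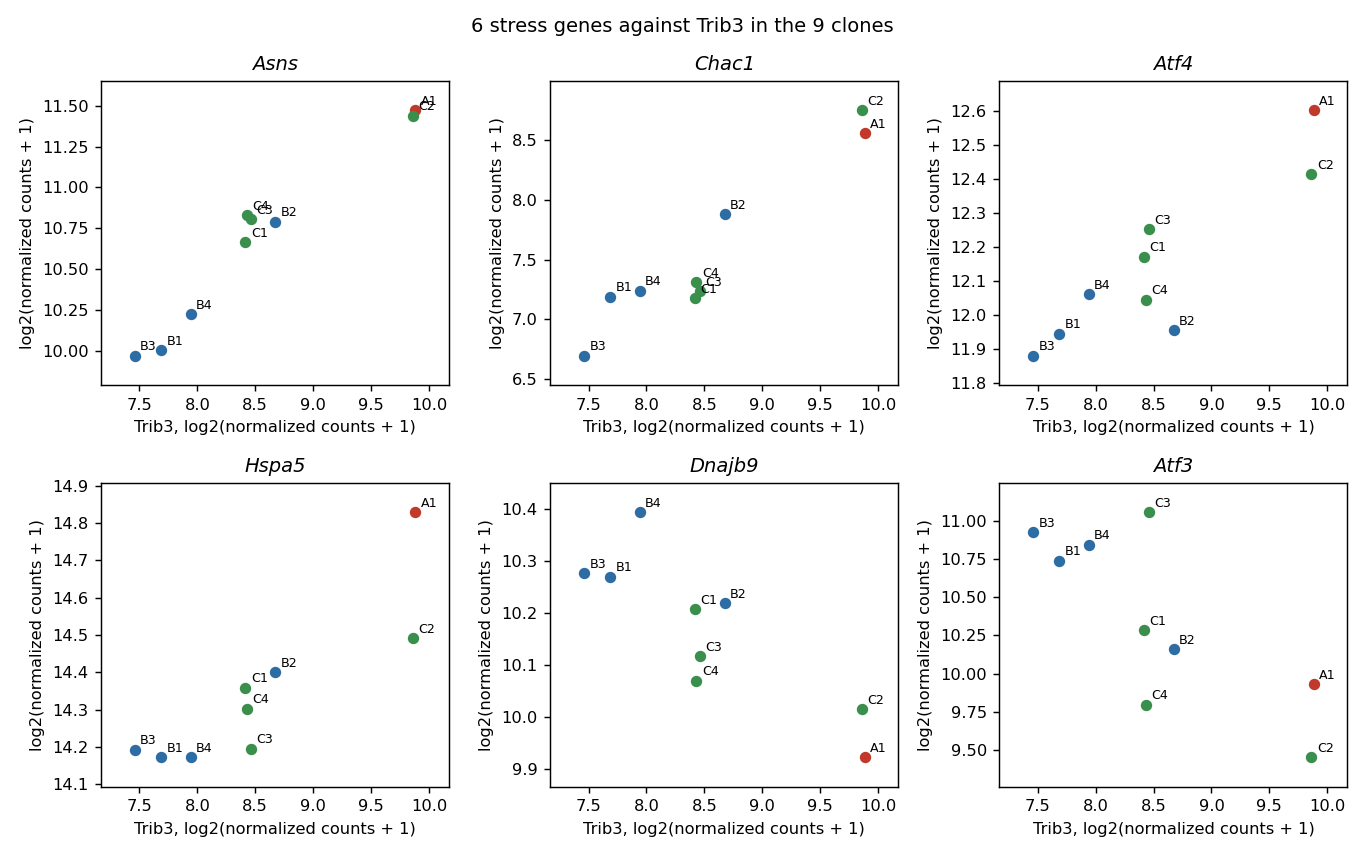
Log2(normalized counts + 1) of 6 members against that of Trib3 in the 9 clones, 1 point per clone, coloured by prefix (A red, B blue, C green). A1 and C2 lie apart at the high end of Trib3, and among the other 7 clones the order of Asns still follows Trib3 (r = 0.97) whereas that of Atf4 does so less closely (r = 0.57).

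Exact permutation tests over all 362880 pairings of the clones were run for 28 relations of the members with Trib3, Hspa5 and Mettl3, two-sided, and their p-values are unadjusted. Asns had r = 0.975 with Trib3 (exact p = 7.72e-05) and rho = 0.933 (exact p = 0.00075). Without A1 and C2, the 2 clones farthest from the median of Trib3, r was 0.97 (exact p = 0.00298, n = 7), and after centring within prefixes B and C it was 0.965 (exact p = 0.00347, n = 8). Chac1 had r = 0.952 (exact p = 0.000193) and rho = 0.867 (exact p = 0.00451), with 0.775 (exact p = 0.0161) without the 2 clones and 0.986 (exact p = 0.00521) within prefixes. Without A1 and C2, r with Trib3 thus stayed high for Asns and was lower for Chac1, by unadjusted tests over 7 clones. The values within prefixes still include C2, so they cannot show whether a relation rests on C2. For Chac1, C2 was at 429 normalized counts, against 144 to 158 in the other clones of prefix C. In limma, 0 of 9 members passed without the 2 clones or with the prefix as a covariate.

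For the remaining members, the relation to Trib3 was looser. Atf4 had r = 0.887 (exact p = 0.00219) and rho = 0.783 (exact p = 0.0172), but 0.573 (exact p = 0.178) without A1 and C2 and 0.694 (exact p = 0.108) within prefixes. Hspa5 had r = 0.875 (exact p = 0.000405) and rho = 0.867 (exact p = 0.00451), then 0.747 (exact p = 0.0593) and 0.845 (exact p = 0.0625). Hsp90b1 had r = 0.86 (exact p = 0.00261) and rho = 0.683 (exact p = 0.0503), then 0.544 (exact p = 0.203) and 0.782 (exact p = 0.0469). Apart from Hsp90b1 within prefixes, these values did not pass 0.05 once the 2 clones or the prefixes were accounted for. Ddit3 had r = 0.776 (exact p = 0.011) and rho = 0.533 (exact p = 0.148), then 0.207 (exact p = 0.632) and 0.768 (exact p = 0.0747). Dnajb9 had r = -0.849 (exact p = 0.00348) and rho = -0.833 (exact p = 0.00827), then -0.598 (exact p = 0.163) and -0.569 (exact p = 0.172). Atf3 had r = -0.778 (exact p = 0.0118) and rho = -0.617 (exact p = 0.0857), then -0.575 (exact p = 0.188) and -0.717 (exact p = 0.127). Without A1 and C2, r thus fell most for Ddit3, while Dnajb9 and Atf3 kept values close in size to that of Atf4 without passing 0.05 over 7 clones. Without A1 alone, r was -0.762 for Dnajb9 (exact p = 0.0244) and -0.791 for Atf3 (exact p = 0.0144, n = 8). Xbp1 had r = -0.12 (exact p = 0.777) and rho = -0.133 (exact p = 0.744). For scale, r with Trib3 was above 0.86 for 5% of all 12300 genes and below -0.872 for another 5%.

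Hsp90b1 followed Hspa5 most closely among the members. Its slope on Hspa5 was 1.18 ± 0.16 (SE, adjusted p = 0.00517, limma), and it ranked 16 of 12300 genes by r. Pearson's r was 0.977 (exact p = 0.000152) and rho 0.817 (exact p = 0.0108), with 0.892 (exact p = 0.0109) without A1 and C2 and 0.938 (exact p = 0.0104) within prefixes. Ddit3 (slope 1.47, adjusted p = 0.00834), Trib3 (3.50, adjusted p = 0.0122), Asns (2.12, adjusted p = 0.0236), Chac1 (2.68, adjusted p = 0.0245) and Atf4 (0.90, adjusted p = 0.0357) also passed. Dnajb9, with a slope of -0.54 (adjusted p = 0.0566), and Atf3, with -1.82 (adjusted p = 0.0771), did not pass, and Xbp1 was at 0.02 (adjusted p = 0.942). Thus 6 of 9 members were positive and 0 of 9 negative, against 7.57% and 8.89% of all genes tested. Upper-quartile rescaling moved the counts over all genes from 931 positive and 1094 negative to 929 and 1667. At an unadjusted p under 0.05, 2 members were negative, Dnajb9 and Atf3, and with upper-quartile rescaling both passed. Of all 12300 genes, 2210 were negative at that unadjusted limit.

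All calls with Hspa5 were lost without A1, and some without B1, B3, B4 or C2. Without A1, limma called 0 of 9 members and 0 of all genes, with adjusted p from 0.0516 for Atf3 upward. At an unadjusted p under 0.05, 5 members were positive and 1 negative, against 1712 and 1969 of all 12300 genes. Without B1, 3 of 9 members were called, with Atf4, Asns and Chac1 lost, and without B3, B4 or C2, 5 of 9 were called, with Atf4 lost. Over all genes tested, 380 were positive and 437 negative without B1, and 564 and 631 without B3. The counts were 520 and 628 without B4, and 718 and 932 without C2. Without A1, the slopes on Hspa5 were 1.26 for Ddit3, 5.30 for Trib3, 3.40 for Asns and 4.21 for Chac1. The directions of these slopes were thus kept.

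For Atf3, the relation to Hspa5 was stronger within prefixes (r = -0.858, exact p = 0.0191) than over the 9 clones (r = -0.69, exact p = 0.0266; rho = -0.717, exact p = 0.0369), and r was -0.795 (exact p = 0.0323) without A1 and C2. The difference between these values of r was not tested. Ddit3 had r = 0.915 (exact p = 0.00259) and rho = 0.567 (exact p = 0.121), then 0.501 (exact p = 0.246) without A1 and C2 and 0.792 (exact p = 0.0451) within prefixes. Asns had r = 0.826 (exact p = 0.00128) and rho = 0.8 (exact p = 0.0138), then 0.685 (exact p = 0.106) and 0.83 (exact p = 0.0556). Chac1 had r = 0.829 (exact p = 0.00561) and rho = 0.667 (exact p = 0.0589), then 0.641 (exact p = 0.106) and 0.808 (exact p = 0.0556). For Asns and Chac1, r with Hspa5 was thus lower without A1 and C2 and did not pass 0.05 over 7 clones. Atf4 had r = 0.802 (exact p = 0.0109) and rho = 0.617 (exact p = 0.0857), but 0.0654 (exact p = 0.889) without A1 and C2 and 0.321 (exact p = 0.528) within prefixes. Dnajb9 had r = -0.791 (exact p = 0.00777) and rho = -0.833 (exact p = 0.00827), then -0.397 (exact p = 0.379) and -0.521 (exact p = 0.22). Without A1 and C2, r of Atf4 with Hspa5 was thus near 0, and that of Dnajb9 was smaller in size and did not pass 0.05. For scale, r with Hspa5 over the 9 clones was above 0.84 for 5% of all 12300 genes and below -0.842 for another 5%. The values of Asns, Chac1, Atf4, Dnajb9 and Atf3 over the 9 clones lay between these limits. Xbp1 had r = 0.0524 (exact p = 0.9) and rho = 0 (exact p = 1) with Hspa5.

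Mettl3 (ENSMUSG00000022160, chr14:52294841-52308741), which encodes the catalytic subunit of the m6A writer, was at 2184 normalized counts in A1, 546, 621, 611 and 515 in B1 to B4, and 468, 490.1, 479.8 and 502 in C1 to C4. A1 stood far above the next clone, B2, and the reads of the transgene and of the endogenous gene cannot be told apart. The limma fit on Mettl3 called 0 of 10 members, against 0.293% of all genes with a positive and 1.64% with a negative slope. At an unadjusted p under 0.05, Hspa5, Hsp90b1 and Ddit3 were positive, and the smallest adjusted p was that of Ddit3 (slope 0.39 ± 0.10, adjusted p = 0.113). Of all 12300 genes, 819 were positive and 972 negative at that unadjusted limit. Hspa5 had an adjusted p of 0.161 in this fit. In the fit on Hspa5, where the same pair of genes is taken the other way, Mettl3 passed over the 9 clones (slope 2.66 ± 0.63, adjusted p = 0.0261) but not without A1 (slope -0.17, adjusted p = 0.842). Without C2, Ddit3 passed (adjusted p = 0.0362), against 81 positive and 258 negative of all 12300 genes. Without A1, 9 of 10 slopes turned their sign, all but that of Xbp1, and 0 of 10 members and 0 of all genes were called. The relation of the members to Mettl3 over the 9 clones therefore cannot be told apart from that to A1. With the prefix as a covariate, which also leaves out A1, 9 of 10 slopes kept their sign, all but that of Atf4. That fit called 0 of 10 members and 0 of all genes. The sign of the slopes without A1 thus differed with the handling of the prefixes.

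By exact permutation, r with Mettl3 was 0.814 for Hspa5 (exact p = 0.0684), 0.8 for Ddit3 (exact p = 0.0563) and 0.754 for Hsp90b1 (exact p = 0.073), with rho of 0.133 (exact p = 0.744), 0.367 (exact p = 0.336) and 0.15 (exact p = 0.708). For Atf4, r was 0.587 (exact p = 0.111) and rho -0.267 (exact p = 0.4933), and r without A1 was -0.77 (exact p = 0.0261, n = 8). For Trib3, Chac1 and Asns, r was 0.511 (exact p = 0.216), 0.501 (exact p = 0.215) and 0.441 (exact p = 0.331), and rho was 0.1 (exact p = 0.81), 0.233 (exact p = 0.552) and -0.0333 (exact p = 0.948). Dnajb9 had r = -0.538 (exact p = 0.17) and rho = 0.1 (exact p = 0.81), and Atf3 had r = -0.233 (exact p = 0.686) and rho = -0.0833 (exact p = 0.843). None of these values for 9 clones passed 0.05. Xbp1 had r = 0.256 (exact p = 0.524) but rho = 0.767 (exact p = 0.0214), and its r was 0.821 (exact p = 0.0152) without A1 and 0.692 (exact p = 0.00174) within prefixes. Dnajb9 had r = -0.722 within prefixes (exact p = 0.0174, n = 8), and the other members did not pass 0.05 there. Within prefixes there were only 576 pairings, which limits how small an exact p can be. With upper-quartile rescaling, r of Xbp1 with Mettl3 over the 9 clones was -0.0999.

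**Figure D3:**
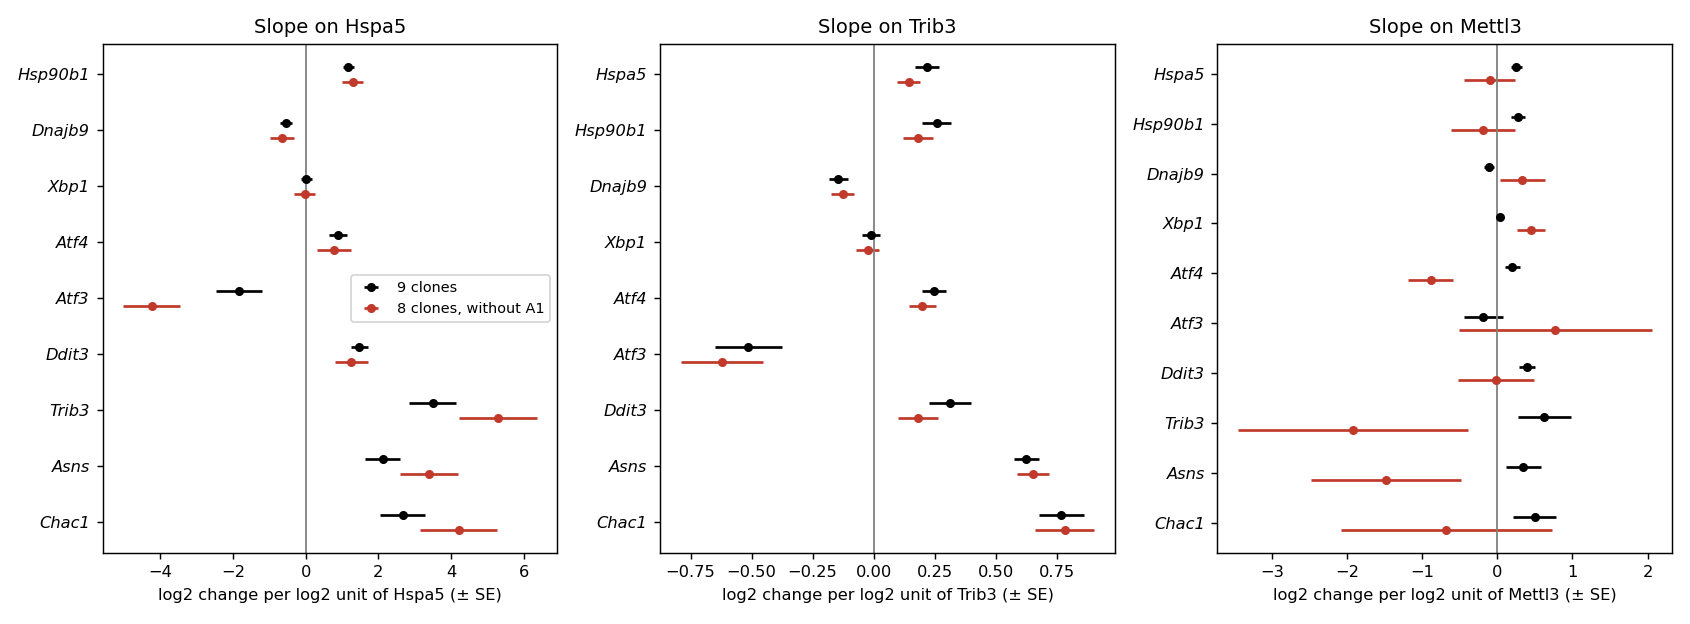
Slopes of the members on Hspa5, Trib3 and Mettl3 (log2 change per log2 unit, points with SE), over the 9 clones (black) and without A1 (red). The slopes of Asns and Chac1 on Trib3 were alike in both fits (0.63 and 0.65 for Asns), whereas 9 of 10 slopes on Mettl3 changed sign without A1.

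Other genes of the pathways were described from lists by count. Of the 31 tested ATF4 targets that are not members, 21 had a positive slope on Trib3 that passed the test and 1 a negative one. Over all genes tested, the shares were 12.3% and 13.9%. The median slope was 0.45 against -0.01 over all genes tested. Psat1, a serine synthesis enzyme, was at 3777 normalized counts in A1 and 4400.3 in C2, against 1079 to 2496 in the other clones, with a slope of 0.81 ± 0.07 (adjusted p = 0.00193, limma). Shmt2, of mitochondrial one-carbon metabolism, had a slope of 0.59 ± 0.06 (adjusted p = 0.00193) and Aldh18a1, of proline synthesis, 0.48 ± 0.05 (adjusted p = 0.00282). Cth, the cysteine-forming cystathionine gamma-lyase, varied most in this list, from 33.3 in B3 to 265 in C2, and had a slope of 1.07 ± 0.20 (adjusted p = 0.00808), while Jdp2 varied least. The negative target was Cebpg (slope -0.30, adjusted p = 0.0101). Ddit4 and Pycr1 had slopes of 0.50 and 0.56 on Trib3 (adjusted p = 0.0048 and 0.00647). Cebpb, a C/EBP factor, stood apart from the list, at 871 in A1 and 2651 to 4079 elsewhere, with a slope on Mettl3 of -0.90 ± 0.12 (adjusted p = 0.0059), on Hspa5 of -2.36 (adjusted p = 0.0471) and on Trib3 of -0.45 (adjusted p = 0.145). In the fit on Mettl3, 1.64% of all genes tested were negative, and 0 of all genes were called without A1. Without A1 or without C2, 15 of 31 targets were positive with Trib3 and 1 negative in either fit. Over all 12300 genes, 890 were positive and 1127 negative without A1, and 907 and 1060 without C2. With Hspa5, 13 of 31 were positive and 2 negative over the 9 clones, against 7.57% and 8.89% of all genes tested. Without A1, limma called 0 genes of any list with Hspa5.

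**Figure D4:**
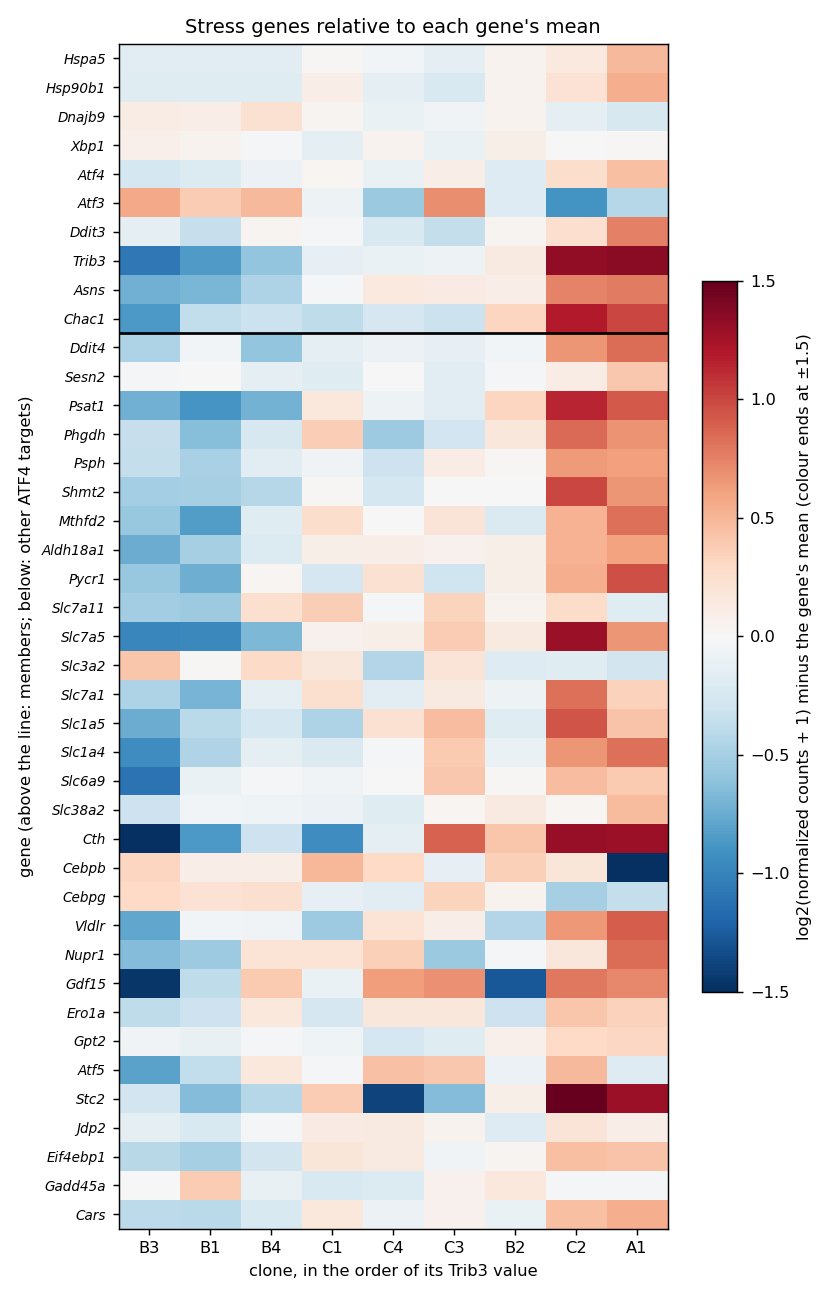
Log2(normalized counts + 1) minus the gene's mean over the 9 clones for the 10 members (above the line) and the 31 other ATF4 targets with a mean of at least 50 (below), with clones in the order of their Trib3 value. Red is above and blue below the gene's mean, and the C2 and A1 columns are red for most ATF4 targets, whereas Cebpg is blue in both and Cebpb is blue in A1.

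All 19 aminoacyl-tRNA synthetases of the cytosol, several of which ATF4 induces, had a slope on Trib3 above 0, as did 48.8% of all genes tested. The slope passed the test for 14 of 19, against 12.3% of all genes tested with a positive slope. The median slope was 0.21 over the list. Aars was at 8705 normalized counts in A1, 8289 in C2 and 4442 to 6522 in the other clones, with a slope of 0.37 ± 0.04 (adjusted p = 0.00308, limma). Lars (slope 0.33, adjusted p = 0.00282), Eprs (0.34, adjusted p = 0.00345) and Gars (0.35, adjusted p = 0.00345) were close to it, as was Cars (0.38, adjusted p = 0.00308), counted with the ATF4 targets. Dars, the least variable synthetase, had a slope of 0.08 (adjusted p = 0.124). With Hspa5, 12 of 19 were positive, against 7.57% of all genes tested. They were led by Tars (slope 1.46, adjusted p = 0.00517), Rars (0.95, adjusted p = 0.00699) and Iars (1.33, adjusted p = 0.00734). With Trib3, 11 of 19 passed without A1 and 9 of 19 without C2, against 890 and 907 positive of all 12300 genes.

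Of the 29 ER chaperones and ERAD factors tested, 8 (27.6%, against 12.3% of all genes tested) had a positive slope on Trib3 that passed the test and 0 a negative one, with a median slope of 0.08. P4hb, a protein disulfide isomerase, was the most variable, at 32502 normalized counts in A1, 27488 in C2 and 18127 to 22979 elsewhere, with slopes of 0.31 ± 0.05 on Trib3 (adjusted p = 0.0061, limma) and 1.27 ± 0.19 on Hspa5 (adjusted p = 0.00695). Pdia6 had slopes of 0.31 and 1.23 (adjusted p = 0.00345 and 0.00771). Sec61a1, of the translocon, and Herpud1, an ERAD factor, had slopes of 0.20 and 0.25 on Trib3 (adjusted p = 0.00552 and 0.0119). With Hspa5, 9 of 29 passed, Ppib (slope 0.81, adjusted p = 0.0118) and Pdia4 (0.87, adjusted p = 0.0245) among them, and 0 were negative. Over all genes tested, 7.57% were positive and 8.89% negative with Hspa5. Derl2, the steadiest of the list, lay between 1271 and 1523 normalized counts.

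Of the 16 stress sensors and regulators tested, 3 were positive with Trib3 and 3 negative, or 18.8% each way, near the 12.3% and 13.9% of all genes tested. Ppp1r15a, the stress-induced subunit that recruits the eIF2α phosphatase, was at 1641 in A1, 1447 in C2 and 716 to 913 in the other clones, with a slope of 0.42 ± 0.08 (adjusted p = 0.00963, limma). Eif2s1, which encodes eIF2α, and Mbtps1, a protease that activates ATF6, had slopes of 0.20 and 0.14 (adjusted p = 0.0207 and 0.0334). Ern1, which encodes IRE1, had a negative slope of -0.28 ± 0.05 (adjusted p = 0.00765) and was at 1225 in A1, 1164 in C2 and 1308 to 1979 in the other clones. Eif2ak1 and Atf6b had slopes of -0.15 and -0.16 (adjusted p = 0.0131 and 0.0133). Eif2ak3, which encodes PERK, was the steadiest of the list, with a slope of -0.06 (adjusted p = 0.374). With Hspa5, Eif2s1 (0.88, adjusted p = 0.017), Ppp1r15a (1.63, adjusted p = 0.0229) and Mbtps1 (0.57, adjusted p = 0.0351) were positive and 0 of 16 negative. The shares of all genes tested with Hspa5 were 7.57% and 8.89%. Without A1, Trib3 had 0 positive and 3 negative sensors, against 890 positive and 1127 negative of all 12300 genes.

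**Figure D5:**
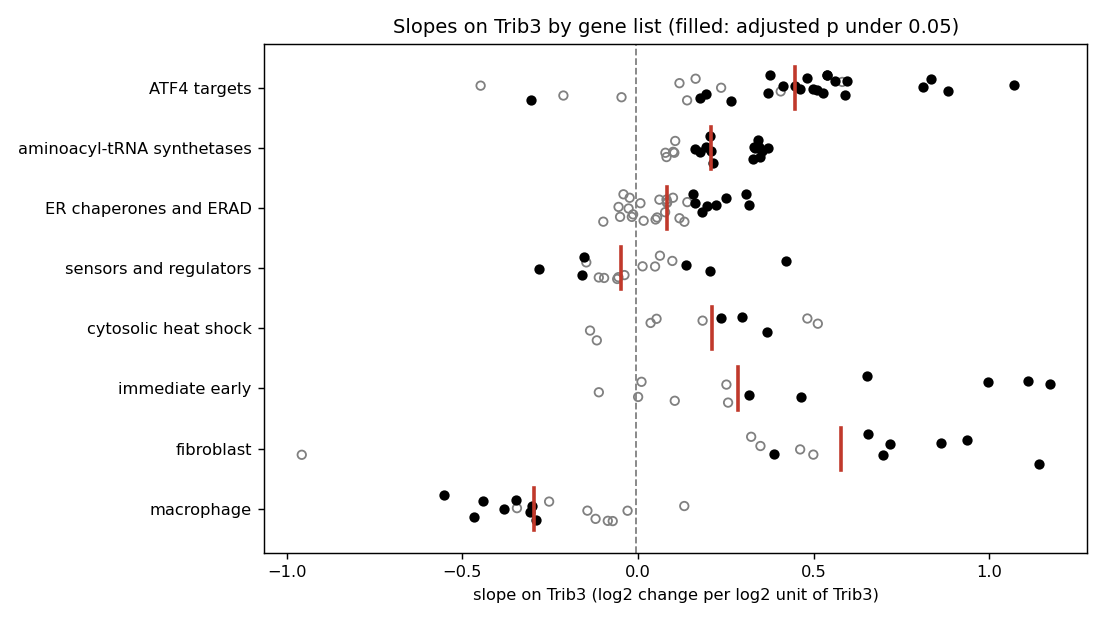
Slopes on Trib3 of the genes of 8 lists, 1 point per gene (filled where the adjusted p was under 0.05), with the list's median as a red bar and the median of all genes tested, -0.01, as a dashed line. ATF4 targets (median 0.45) and fibroblast markers (0.58) lie to the right, and macrophage markers (-0.30) to the left.

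Markers of cell type moved with Trib3 as well. Over all genes tested, 12.3% were positive and 13.9% negative with Trib3. Of the 12 tested fibroblast markers, 7 were positive with Trib3 (0 negative), and of the 16 macrophage markers 8 were negative (0 positive). Of 12 immediate early genes, which respond to handling and growth factors, 6 were positive with Trib3, and Egr1 was at 2862 normalized counts in A1 and 3612 in C2 against 369 to 979.8 in the other clones. Of 10 cytosolic heat shock genes, 3 were positive. Without A1, these counts were 4 positive and 1 negative for fibroblast markers, 6 negative for macrophage markers, 3 positive and 2 negative for immediate early genes and 1 positive for heat shock genes. Over all 12300 genes, 890 were positive and 1127 negative in that fit. The part of these lists in the slopes of the members was not tested.

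In the promoter windows of these lists, the CARE letters were found in 7 of the 27 ATF4 targets and 5 of the 13 synthetases that had a window, against 4.51% of all 27025 genes with a window. The ERSE letters were found in 7 of 24 ER chaperones and ERAD factors, against 0.137%. The windows of 0 of 27 ATF4 targets and 0 of 13 synthetases held an ERSE, and 1 of 24 chaperones and ERAD factors held a CARE. Among the marker lists, 2 of 6 acinar genes (33.3%) held a CARE, against 25.9% of the ATF4 targets and 38.5% of the synthetases.

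The genes whose levels were most like those of Hspa5 over the 9 clones, by r among 12300 genes, were Rpl35a (0.992), Trnt1 (0.989), Rpl7 (0.989), Rpl21 (0.986) and Rpl27a (0.985). The ribosomal protein genes have near-identical processed copies, so their counts may be uncertain, which was not tested. A1 was the highest clone for Hspa5, Rpl35a, Trnt1 and Rpl7, with a wide gap to C2. For these top genes, r without A1 was not computed. Those most like Trib3 were Ttf2 (0.984), Slit2 (0.979), Asns (0.975), Traip (0.974) and Jmjd6 (0.972). For Slit2, a secreted guidance cue, the level was 2657 normalized counts in A1 and 2184 in C2, around a mean of 1080.0 ± 795 (SD, n = 9).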

How the data were processed

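For the 9 WTg clones, the authors deposited 1 table of log2 values over 18049 genes. The lowest deposited value is 2, the log2 of 4, and after the log2 was undone and 4 subtracted, each library held whole multiples of 1 step, so that whole reads (tolerance 0.1 read) were recovered for 100% of nonzero values under 1000 reads. The submitters' processing notes name FastQC 0.11.9, STAR 2.7.10, RSEM 1.3.3 and GRCm38, without their roles, and the labels state a stranded mRNA kit, with the scaling software, annotation and gene filter not given in the sources used here. Another 6 per-sample columns with no sample here were not used. Of the identifiers, 18033 matched the gene names.

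The members and lists were chosen with earlier results of these data known. The clones form 1 group. Every gene averaging 50 or more normalized counts was fitted with limma 3.58.1 (lmFit, eBayes with a trend, R 4.3.3) on log2(normalized counts + 1) against log2 Hspa5, Trib3 or Mettl3, with an adjusted p under 0.05 as the threshold, after tests on simulated data. Exact permutation tests gave the p of Pearson's r and of Spearman's rho. Intervals and the floor of 3 reads cover counting error only. No 2 libraries agreed within sampling noise (smallest chi-square per degree of freedom 24.1, B1 and B4). Named besides the members are Mettl3, the genes of 4 lists with the smallest p in a fit (up to 4 per list and fit), the highest and lowest SD of each list, and the 5 genes most like Hspa5 and Trib3. Cebpg, Egr1 and Epcam were named after their values were seen. Motifs were searched in RefSeq promoter windows. Alternatives were other filters, the deposited log2 values, no trend, voom, upper-quartile rescaling, the prefix as a covariate, and leaving clones out. Tables and plots were made with pandas 2.3.3, matplotlib 3.10.9, scipy 1.17.1 and numpy 2.4.6 under Python 3.11.15.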

Additional observations from a re-analysis of the deposited data

Results flagged for a closer look

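In 9 of 51 named genes, 1 clone lay apart from the other 8, with a gap to its neighbour above the 95% critical value of Dixon's test. Chance gives this in about 1 in 20 genes that are chosen without regard to their values. Many of these genes were named for following Hspa5, Trib3 or Mettl3, of which Hspa5 and Mettl3 are themselves apart in A1, so nothing is read from the count. The clone was A1 in each of the 9. Among the members, Hspa5 (0.571 of the range, 29114 normalized counts against 23029 in C2) and Ddit3 (0.548, 1418 against 1002) were highest in A1. Mettl3 had the widest gap, 0.911 of the range, from 2184 in A1 to 621 in B2. Ppib (0.582), Dars (0.603), Rpl35a (0.555), Trnt1 (0.595) and Rpl7 (0.675) were also highest in A1. Cebpb was lowest in A1, at 871 normalized counts against 2651 in C3, a gap of 0.555 of the range. A1 is the shallowest library and the single clone of its prefix, so the clone, its prefix and its depth cannot be told apart.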

How the results depend on the processing

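The mean levels of all 10 members moved by less than 1 SD under every alternative run. Leaving out 1 of 9 clones cannot move a mean by 1 SD, and the rescaling factors were small (at most 0.068 in log2). Nothing is therefore read from this. No paired analysis was possible because the 9 clones form a single group with no second one to pair them with. With the prefix as a covariate, and without the 2 clones farthest from the median (A1 and C2 for Hspa5 and Trib3, A1 and B2 for Mettl3), limma called 0 genes in each fit. With Hspa5, voom called 615 positive genes and upper-quartile rescaling 1667 negative ones. With Mettl3, voom called 22 positive and 26 negative genes, the minimum mean of 10 gave 333 negative ones, and no filter gave 57 positive and 362 negative. Leaving out 1 clone gave 0 to 877 positive and 0 to 1038 negative genes with Hspa5, 890 to 1603 and 834 to 1828 with Trib3, and 0 to 81 and 0 to 258 with Mettl3. The 0 came without A1.

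Xbp1 changed sign most readily. Its slope on Hspa5 was -0.0696 with voom, -0.0746 with upper-quartile rescaling and -0.0246 without A1 and C2 (-0.0294 to 0.0579 leaving out 1 clone), and r was -0.203 with that rescaling and -0.0261 without A1 and C2 (-0.0863 to 0.162). On Trib3 its slope was 0.0311 with the prefix (-0.0243 to 0.00523) and r 0.275 within prefixes (-0.216 to 0.0534). On Mettl3 it had a slope of -0.0108 and r of -0.0999 with upper-quartile rescaling.

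Without A1 and B2, the slopes on Mettl3 were -0.47 for Hspa5, -0.62 for Hsp90b1, 0.48 for Dnajb9, -1.09 for Atf4, 1.91 for Atf3, -0.37 for Ddit3, -3.95 for Trib3, -2.94 for Asns and -2.30 for Chac1, and r was -0.51, -0.47, 0.476, -0.778, 0.405, -0.221, -0.657, -0.728 and -0.469 in that order. Atf4 had -0.47 with the prefix as a covariate and r of -0.373 within prefixes. Leaving out 1 clone, the slopes on Mettl3 ran from -0.11 to 0.27 for Hspa5, -0.19 to 0.31 for Hsp90b1, -0.13 to 0.33 for Dnajb9, -0.89 to 0.23 for Atf4, -0.28 to 0.77 for Atf3, -0.0163 to 0.43 for Ddit3, -1.92 to 0.78 for Trib3, -1.48 to 0.43 for Asns and -0.68 to 0.63 for Chac1. In the same order, r ran from -0.134 to 0.903, -0.18 to 0.871, -0.668 to 0.418, -0.77 to 0.74, -0.43 to 0.206, -0.0119 to 0.897, -0.402 to 0.767, -0.462 to 0.628 and -0.171 to 0.819. Each reversal on Mettl3 in these ranges came without A1. Fewer clones also give fewer degrees of freedom, and the cause of the other changes was not tested.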
